A study of Mus musculus with 6 samples.

Results

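The genes described here are the p160 family of nuclear receptor coactivators and the enzymes and adaptor that work with them, measured in mouse embryonic stem cells after siRNA against p/CIP. The set was named gene by gene: Ncoa1, Ncoa2, Ncoa3, Ncoa6, Ep300, Crebbp, Carm1, Prmt1, Kat2a and Kat2b. Each of the 10 was matched by its exact symbol to a single probe set, so that no choice between probe sets had to be made, and together they are 10 of the 19938 genes of the table. Cells of the E14 mouse embryonic stem cell line, grown on adherent plates, received pooled non-specific siRNAs (control), siRNA 1 against p/CIP or siRNA 2 against p/CIP, and total RNA was hybridised to expression arrays, 2 per group and 6 in all. No allele is named that differs between the groups. Only the sample titles and descriptions separate siRNA 1 from siRNA 2: the treatment text says that 2 different siRNAs were used but gives both the name siRNA1, and the titles were followed here. The labels give neither the time after transfection nor the siRNA sequences, and do not say whether the replicates were separate cultures, so that each p-value rests on a spread between arrays that may be technical.

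When a nuclear receptor binds its ligand, a helix of the receptor closes over a groove that accepts short leucine-rich motifs of the p160 proteins. The p160 proteins act mainly by bringing in the histone acetyltransferases p300 and CBP and the arginine methyltransferases Carm1 and Prmt1, which modify histones near the promoter. In embryonic stem cells orphan receptors such as Esrrb bind p160 proteins without a known ligand, and p/CIP (the product of Ncoa3) is one of the coactivators that Esrrb recruits.

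The deposited values are log2 signals, with a base inferred from their range of 2.69 to 14.6. Array medians over genes lay between 7.77 and 7.84, and correlations between pairs of arrays ran from 0.991 to 0.998. The array labelled siRNA 1 replicate 2 stood apart, with an interquartile range of 3.13 against 3.33 to 3.45 on the other 5 and the lowest mean correlation with them, 0.994. All 8 pluripotency markers checked were well above the median gene level of 7.81, with mean signals of 10.6 to 13.7. Their average per array was 12.50 to 12.56 in control cells, 12.28 to 12.43 with siRNA 1 and 12.39 to 12.46 with siRNA 2. On all 4 knockdown arrays Nanog and Zfp42 lay below both controls (log2 change -0.33 and -0.39) and Dppa5a above (0.06). The others overlapped. None of the 8 passed the test described below. With the replicate number as a block Zfp42 passed for siRNA 1 (limma adjusted p = 0.0421), beside 1.21% of all genes. Averages per array of the markers of other cell types, over all groups, were 7.57 to 7.82 for 6 fibroblast feeder genes, 7.30 to 7.87 for 6 extraembryonic endoderm genes, 8.34 to 8.67 for 6 trophoblast genes, 7.98 to 8.14 for 4 neural genes and 6.84 to 7.05 for 3 measured mesoderm genes. Also above the median gene level by their means were 3 feeder, 3 extraembryonic endoderm, 5 trophoblast, 3 neural and 0 mesoderm genes. In trophoblast genes the siRNA 1 arrays, at 8.60 and 8.67, lay above both control arrays, at 8.46 and 8.47. The siRNA 2 arrays, at 8.34 and 8.47, did not. Of these genes Eomes, Gata3 and Hand1 lay above both controls on both siRNA 1 arrays, Tfap2c lay below, and Cdx2 and Elf5 overlapped. With siRNA 1, 22.9% of all genes lay above both controls and 20.5% below. In extraembryonic endoderm genes the controls alone ran from 7.30 to 7.59. In bulk RNA a change in the number of cells of a type and a change in RNA per cell cannot be told apart.

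Of the 10 genes, only the target changed by the test used. Ncoa3 fell over both siRNAs, and 0 of the other 9 genes passed in any of the 4 contrasts (both siRNAs, siRNA 1, siRNA 2, and siRNA 2 against siRNA 1). The test was limma's moderated test across all 19938 genes with Benjamini-Hochberg adjustment, and a gene was called at an adjusted p under 0.05. The 1 member called for both siRNAs stands against a background of 0.0702% of all genes called. The same count and the same background, 0.0702%, held for siRNA 1, while for siRNA 2 and for the contrast between the siRNAs 0 members and 0% of all genes were called. At an unadjusted p under 0.05, 0 of the other 9 passed for both siRNAs (8.72% of all genes), 1 for siRNA 1 (Kat2b, beside 12.1%), 0 for siRNA 2 (5.25%) and 0 between the siRNAs (6.9%). With the replicate number as a block these unadjusted counts were 1 for both siRNAs (Kat2b, beside 17.5% of all genes), 2 for siRNA 1 (Kat2b and Ncoa2, beside 24.3%), 0 for siRNA 2 (10.1%) and 1 between the siRNAs (Kat2b, beside 15.6%), and none of them passed after adjustment. After adjustment, and with the block, Ncoa3 was the 1 member called for both siRNAs (0.341% of all genes), for siRNA 1 (1.21%) and for siRNA 2 (0.13%), and 0 members were called between the siRNAs (0.0752%). Comparisons of siRNA 1, siRNA 2 and both siRNAs against control use the same 2 control arrays, so their values are set side by side and are not independent of each other.

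**Figure D1:**
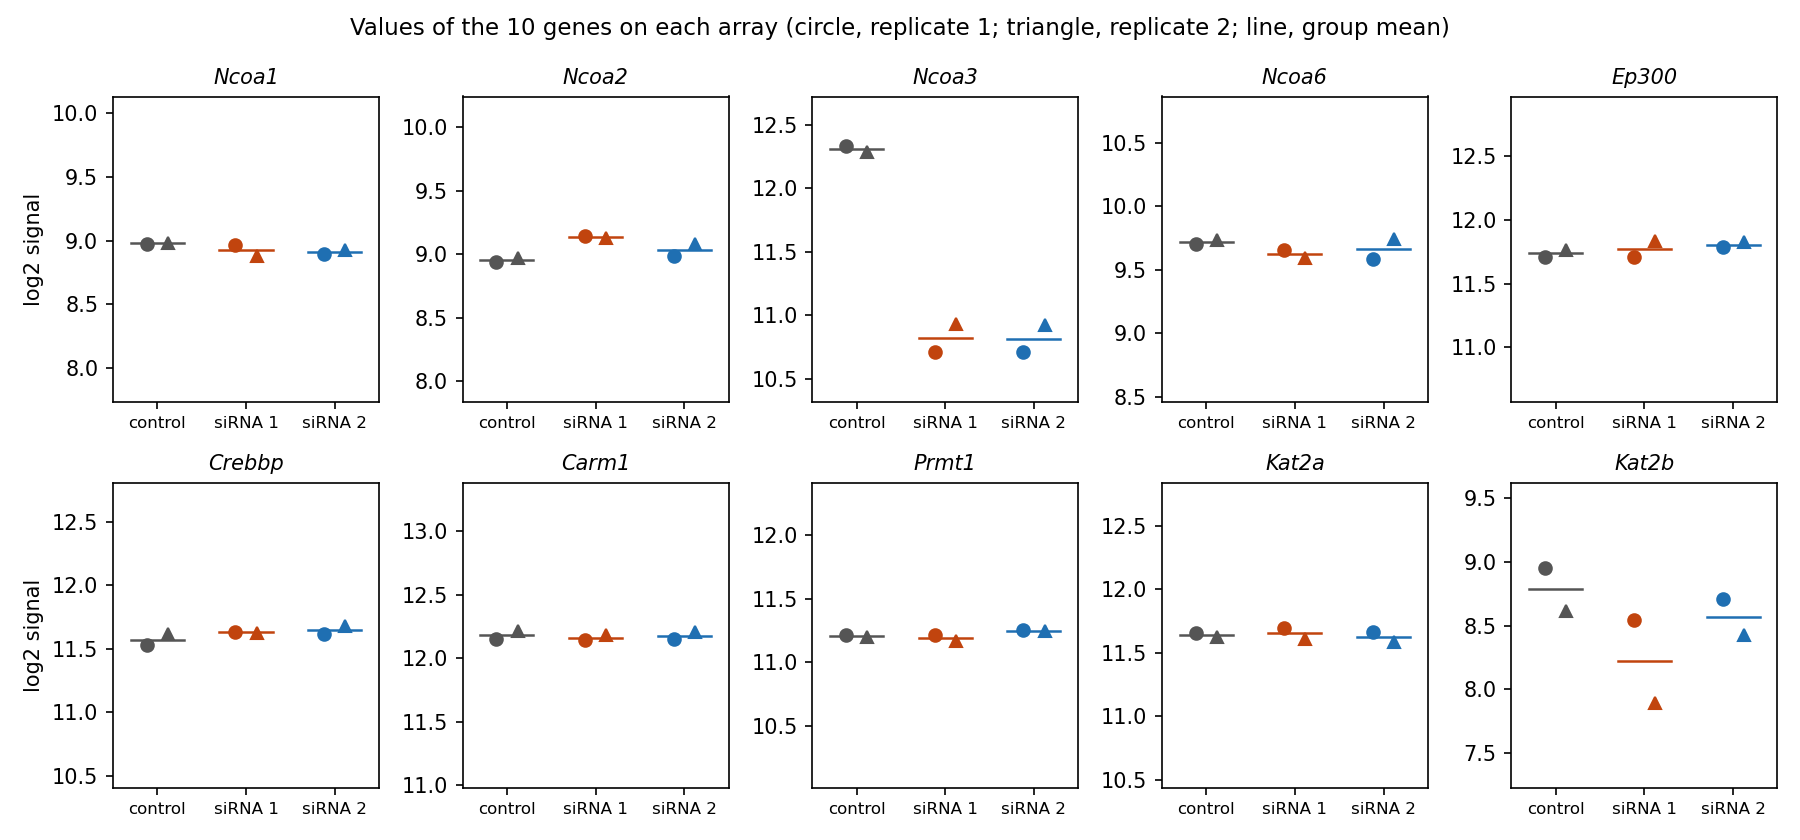
Log2 signal (y axis, each panel spanning the same number of log2 units) of the 10 genes on each of the 6 arrays, by group on the x axis; circles are replicate 1, triangles replicate 2, and lines the mean of the 2 arrays. Ncoa3 drops from above 12.2 in control cells to between 10.71 and 10.93 with either siRNA, Kat2b has the widest spread within groups, and the other 8 genes lie almost level.

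Ncoa3 encodes p/CIP, the p160 member targeted here. It read 12.33 and 12.28 in control cells, 10.71 and 10.93 under siRNA 1 and 10.71 and 10.92 under siRNA 2. The knockdown arrays did not overlap the controls, and within each siRNA group replicate 1 was the lower of the pair. Ncoa3 stood at 35.6% of control with both siRNAs (95% interval 30.4% to 41.8%; log2 change -1.49, standard error 0.0964, limma adjusted p = 0.0287), and it ranked first by p among all genes. With siRNA 1 it stood at 35.7% (29.7% to 42.9%, adjusted p = 0.0452) and with siRNA 2 at 35.6% (29.6% to 42.8%, adjusted p = 0.0742, and 0.048 with the replicate number as a block). Within replicate number 1 the log2 change over both siRNAs was -1.62, and within number 2 it was -1.36. Dropping control replicate 1 took the adjusted p for both siRNAs to 0.62, dropping control replicate 2 to 0.248, and dropping siRNA 2 replicate 1 or 2 to 0.146 or 0.0969. For siRNA 1 the same omissions gave 0.662, 0.286, 0.155 and 0.155. For siRNA 2, which had not passed, the adjusted p was 1 or 0.436 when control replicate 1 or 2 was dropped, and 0.793 or 0.388 when replicate 1 or 2 of siRNA 2 itself was. Leaving out either siRNA 1 array, which cannot move the siRNA 2 change and alters only the estimate of the spread, gave 0.0193. Over both siRNAs and for siRNA 1, the call of Ncoa3 was kept when either siRNA 1 array was left out. Over all these omissions the log2 change lay between -1.60 and -1.38.

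The paralogs of p/CIP, Ncoa1 and Ncoa2, were examined for a rise in RNA beside the fall of Ncoa3 to 35.6% of control. Protein was not measured, so compensation at that level, or at a deeper depletion of p/CIP, is not addressed. Neither passed the test in any contrast. Ncoa2 values lay above and Ncoa1 values below control on all 4 knockdown arrays, by small amounts. Over all genes, 8.83% lay above and 10.1% below control without overlap on these arrays.

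Ncoa2 encodes TIF2 (GRIP1), a p160 coactivator of steroid receptors. Its log2 signal was 8.94 and 8.97 in control cells, 9.14 and 9.13 under siRNA 1 and 8.99 and 9.08 under siRNA 2. The siRNA 1 arrays were the highest of the 6, and the siRNA 2 arrays lay between them and the controls. With both siRNAs Ncoa2 was at 109% of control (95% interval 97.7% to 122%; log2 change 0.13, standard error 0.0679, limma adjusted p = 0.646). It was at 113% with siRNA 1 (99.3% to 129%, limma adjusted p = 0.425) and at 106% with siRNA 2 (92.8% to 120%, adjusted p = 0.999). The 2 siRNAs were not shown to differ in Ncoa2, with a difference of siRNA 2 minus siRNA 1 of -0.10 on the log2 scale (95% interval -0.29 to 0.09, adjusted p = 0.765). The log2 change over both siRNAs was 0.12 within replicate number 1 and 0.13 within number 2, and it ran from 0.10 to 0.15 when any 1 array was left out. With the replicate block the limma adjusted p of Ncoa2 was 0.313 for both siRNAs, 0.182 for siRNA 1 (unadjusted 0.0359) and 0.752 for siRNA 2. A log2 change larger than that of Ncoa2, in either direction, was found in 30.0% of all genes.

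Ncoa1, the founding member of the family, encodes a coactivator of steroid and thyroid hormone receptors. Its log2 signal was 8.97 and 8.98 in control cells, 8.96 and 8.88 under siRNA 1 and 8.89 and 8.93 under siRNA 2. The groups came closest on replicate 1, where siRNA 1 minus control was -0.00991. With both siRNAs Ncoa1 was at 95.8% of control (95% interval 85.7% to 107%; log2 change -0.06, standard error 0.0673, limma adjusted p = 0.801). With siRNA 1 it was at 96.2% (84.6% to 109%) and with siRNA 2 at 95.4% (83.9% to 108%). A rise of Ncoa1 to more than 107% of control, or of Ncoa2 to more than 122%, lies outside the 95% intervals for both siRNAs. These intervals are not adjusted for the number of genes.

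**Figure D2:**
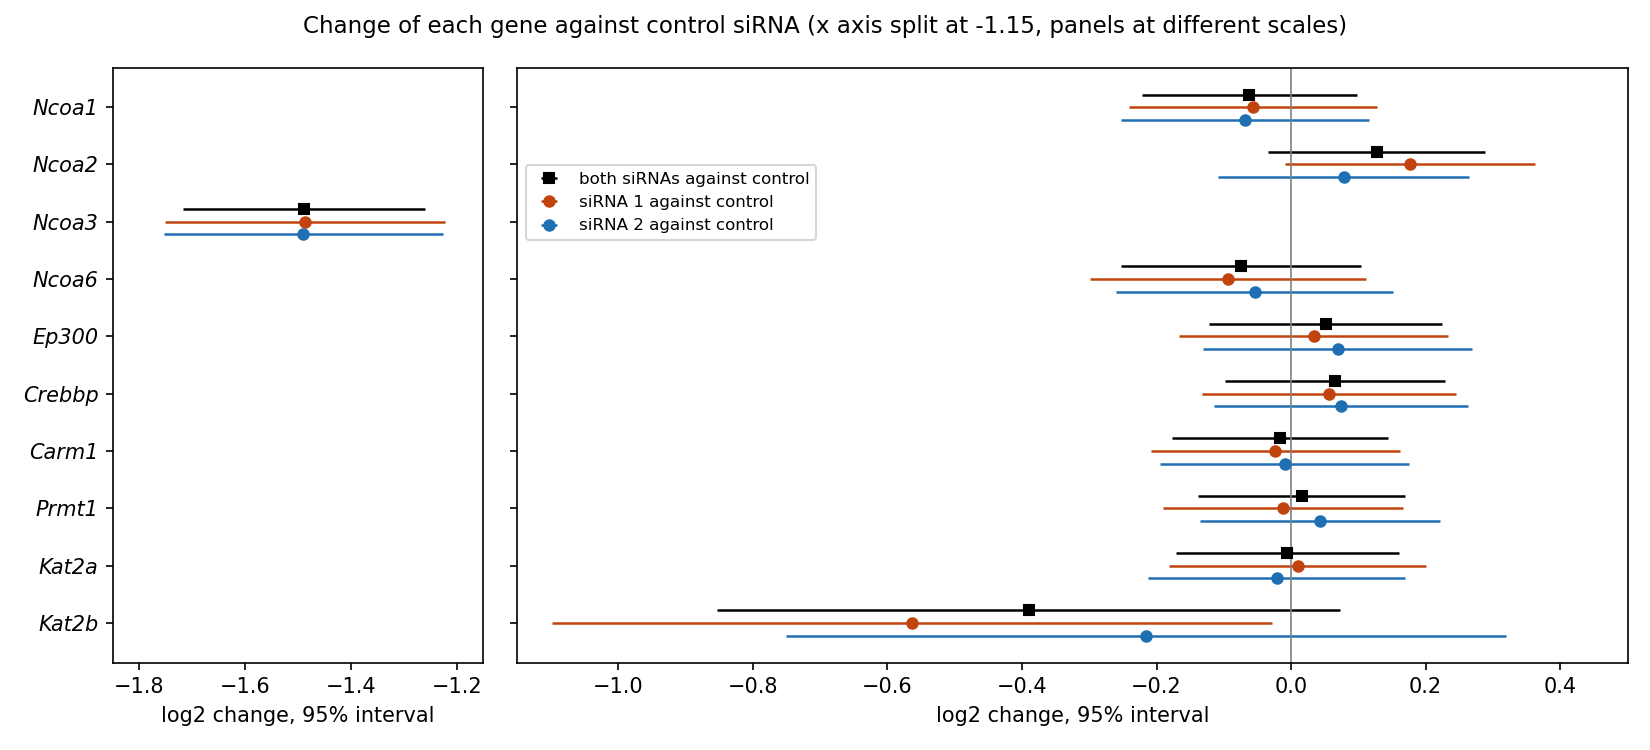
Log2 change (x axis) of each of the 10 genes (y axis) for both siRNAs, siRNA 1 and siRNA 2 against control, with 95% intervals from the moderated fit; the left panel, at its own scale, holds only Ncoa3. The intervals of Ncoa3 lie between -1.75 and -1.22, those of Kat2b are the widest, reaching from -1.10 to 0.32, and those of the other genes include 0.

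Ncoa6 is no p160 protein but a large coactivator (ASC-2) that binds receptors through similar motifs and belongs to a histone methyltransferase complex. Ncoa6 read 9.70 and 9.73 in control cells, 9.65 and 9.59 under siRNA 1 and 9.58 and 9.74 under siRNA 2. Both siRNA 1 arrays were below the controls, while the siRNA 2 arrays were the lowest and the highest of all 6. It was at 95.0% of control with both siRNAs (95% interval 84.0% to 107%, limma adjusted p = 0.786).

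Ep300 and Crebbp encode p300 and CBP, the paired acetyltransferases that p160 proteins recruit through a shared activation domain. Ep300 read 11.71 and 11.77 in control cells, 11.71 and 11.84 under siRNA 1 and 11.79 and 11.83 under siRNA 2. Crebbp read 11.53 and 11.62 in control cells, 11.64 and 11.62 under siRNA 1 and 11.62 and 11.68 under siRNA 2. In both genes the knockdown arrays overlapped the controls, and the mean of each siRNA group was slightly above the control mean. Ep300 was at 104% of control with both siRNAs (95% interval 91.9% to 117%, limma adjusted p = 0.848), and Crebbp at 105% (93.4% to 117%, adjusted p = 0.794).

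Carm1 and Prmt1 encode the arginine methyltransferases that bind the p160 C-terminal region. Carm1 methylates histone H3, p300 and p/CIP itself, and Prmt1 deposits most of the asymmetric dimethylarginine of cells. Carm1 read 12.15 and 12.22 in control cells, 12.14 and 12.18 under siRNA 1 and 12.15 and 12.20 under siRNA 2. Prmt1 read 11.21 and 11.20 in control cells, 11.22 and 11.17 under siRNA 1 and 11.25 and 11.24 under siRNA 2. The groups overlapped in both genes over the 4 knockdown arrays, although both siRNA 2 arrays were the highest of the 6 for Prmt1. Carm1 was at 98.9% of control with both siRNAs (95% interval 88.5% to 110%, limma adjusted p = 0.956) and Prmt1 at 101% (90.8% to 113%, adjusted p = 0.957). The signs of such small differences moved with scaling: after quantile normalization the log2 change of Carm1 was 0.02 instead of -0.02, and that of Kat2a 0.04 instead of -0.01.

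Kat2a (GCN5) and Kat2b (PCAF) are paralogous acetyltransferases that take turns as the catalytic subunit of the SAGA and ATAC complexes, and Kat2b was found as a partner of p300, CBP and p160 proteins. In these data the paralogs had very different spreads. Kat2a read 11.66 and 11.63 in control cells, 11.69 and 11.61 under siRNA 1 and 11.66 and 11.58 under siRNA 2, and it was at 99.6% of control (95% interval 88.8% to 112%, limma adjusted p = 0.985).

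Kat2b read 8.95 and 8.62 in control cells, 8.55 and 7.90 under siRNA 1 and 8.71 and 8.42 under siRNA 2. Both siRNA 1 arrays lay below both controls, and siRNA 2 replicate 1 lay between the 2 control arrays. With both siRNAs Kat2b was at 76.3% of control (95% interval 55.4% to 105%; log2 change -0.39, standard error 0.195, limma adjusted p = 0.62, and 0.127 with the replicate block). With siRNA 1 it was at 67.7% (46.7% to 98.0%; log2 change -0.56, unadjusted p = 0.0416, limma adjusted p = 0.402, and 0.0677 with the replicate block), and with siRNA 2 at 86.1% (59.4% to 125%, adjusted p = 0.999). So 0 of these comparisons was called, with or without the block. The difference of siRNA 2 minus siRNA 1 was 0.35 on the log2 scale (95% interval -0.19 to 0.88, limma adjusted p = 0.753).

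The size of the Kat2b value moved when single arrays were left out. Kat2b was lower on replicate 2 in each group, so that such an omission also unbalances the replicate numbers. With the replicate block the standard error of Kat2b over both siRNAs was 0.0884 instead of 0.195. Its log2 change over both siRNAs was -0.22 without control replicate 1, -0.23 without siRNA 1 replicate 2, -0.56 without control replicate 2 and -0.55 without siRNA 1 replicate 1. With siRNA 1 it ran from -0.24 without siRNA 1 replicate 2 to -0.89 without siRNA 1 replicate 1 (limma adjusted p = 0.889 and 0.0502), and was -0.40 and -0.73 without control replicate 1 and 2. With siRNA 2 it ran from -0.05 without control replicate 1 to -0.38 without control replicate 2, and was -0.36 and -0.07 without siRNA 2 replicate 1 and 2. The difference of siRNA 2 minus siRNA 1 was 0.67 and 0.02 without siRNA 1 replicate 1 and 2, and 0.20 and 0.49 without siRNA 2 replicate 1 and 2. None of these omissions led to a call. Over both siRNAs, within replicate number 1 the change was -0.32 and within number 2 it was -0.46. When the arrays were split by the code numbers in their labels, which the labels do not explain, it was -0.65 over the 3 lowest codes and -0.13 over the 3 highest. The array with the lowest Kat2b value, siRNA 1 replicate 2, is the one with the narrowest range of signals and also the one with the highest extraembryonic endoderm average, 7.87, and the part of either in the result was not tested.

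The 10 genes also differed in how well the arrays of a group agreed. The residual SD within groups was 0.0206 for Prmt1, 0.0363 for Ncoa1, 0.0374 for Carm1, 0.0399 for Ncoa2, 0.0441 for Crebbp, 0.0485 for Kat2a, 0.0606 for Ep300 and 0.0682 for Ncoa6. These 8 all lie below the median over all genes of 0.1. It was 0.126 for Ncoa3 and 0.321 for Kat2b, larger than in 99.0% of genes. Kat2b was lower on replicate 2 than on replicate 1 in each group, by a log2 difference of -0.33 in control cells, -0.65 with siRNA 1 and -0.29 with siRNA 2. Such an order, in either direction, held in all 3 groups for Ep300 and Carm1, which were higher on replicate 2, and for Prmt1, Kat2a and Kat2b, which were lower. Over all genes 49.9% had one of these orders, 28.5% with replicate 2 higher and 21.4% with replicate 2 lower, so that 5 of 10 is close to the background. Ncoa3 was lower on replicate 2 by -0.05 in control cells and higher on it by 0.22 with siRNA 1 and by 0.21 with siRNA 2.

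**Figure D3:**
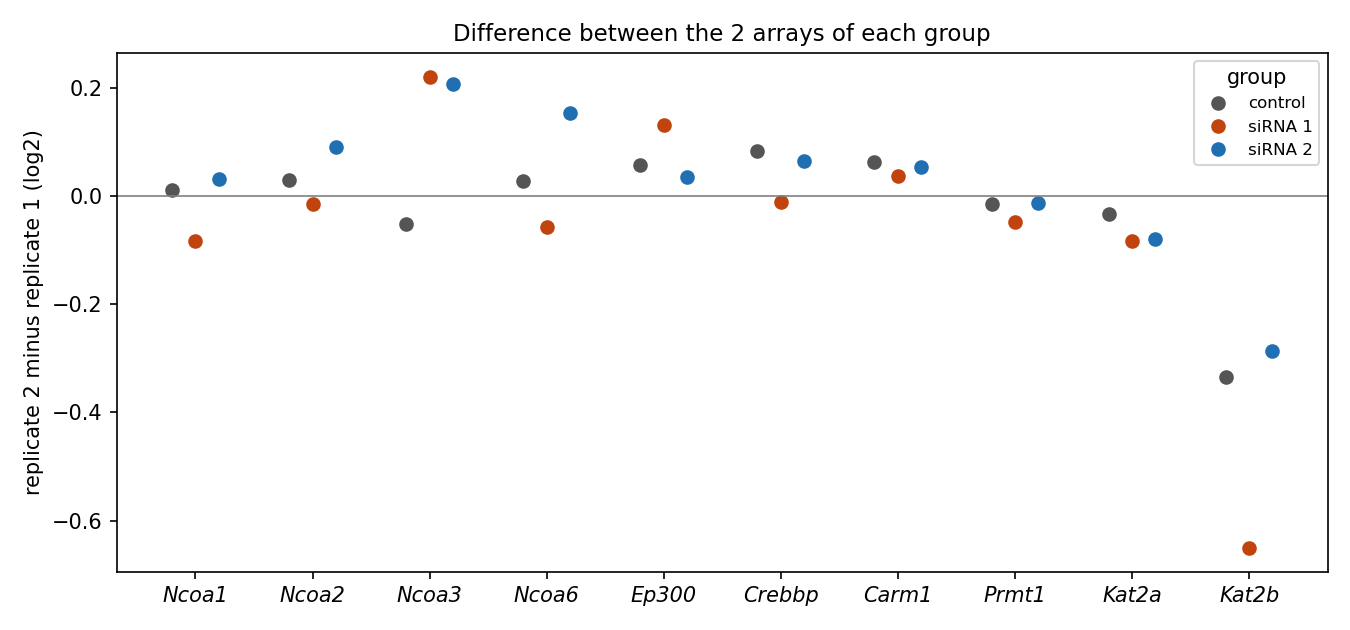
Log2 signal of replicate 2 minus that of replicate 1 (y axis) for each of the 10 genes (x axis), with 1 point per group. Kat2b is the only one of the 10 with all 3 points below -0.25, and Ncoa3 has 2 knockdown points near 0.2 and a control point at -0.05.

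Over all 4 knockdown arrays, 3 of the 10 genes did not overlap the controls: Ncoa3 and Ncoa1 below, and Ncoa2 above. The corresponding share of all genes was 18.9% in either direction. With siRNA 1 alone Ncoa2 and Crebbp lay above both controls, and Ncoa1, Ncoa3, Ncoa6 and Kat2b below, beside 22.9% of all genes above and 20.5% below. With siRNA 2 alone Ncoa2, Ep300 and Prmt1 lay above, and Ncoa1 and Ncoa3 below, beside 16% of all genes above and 19.8% below. The median log2 change of the 9 genes other than Ncoa3 was -0.01 over both siRNAs, beside 0.01 over all genes, and the median size of their changes without regard to sign was 0.0624, beside 0.0801 over all genes.

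The genes with patterns most like that of Ncoa3 were sought by Pearson's r over the 6 arrays, among 453 genes brighter than the median gene level and with an SD over arrays of at least 0.25. The arrays form a high pair and a low set of 4 in Ncoa3, so that r mainly tells how cleanly a gene separates them, and it is given as a description. Genes picked in this way tend to differ between control and knockdown arrays, so that calls among them are no separate support. Over all genes 0.0702% were called lower over both siRNAs, and 0.311% with the replicate block. The 5 genes of highest r were Scmh1, a Polycomb group gene (0.994), the hedgehog effector Gli2 (0.990), the cytochrome P450 gene Cyp2b23 (0.990), the T-box factor Tbx3 (0.986) and the transporter Slc47a1 (0.985). Scmh1 read 10.50 and 10.55 in control cells, 9.88 and 10.01 under siRNA 1 and 9.90 and 10.03 under siRNA 2, a log2 change of -0.57 (limma adjusted p = 0.126, and 0.0269 with the replicate block). Slc47a1 read 8.36 and 8.40 in control cells, 7.84 and 7.82 under siRNA 1 and 7.88 and 7.92 under siRNA 2 (log2 change -0.52, limma adjusted p = 0.109, and 0.036 with the block). Gli2, Cyp2b23 and Tbx3 fell (log2 change -0.81, -0.89 and -0.91, limma adjusted p = 0.0347, 0.0347 and 0.0388, and 0.0212, 0.0230 and 0.0269 with the block). Each of these 3 calls was lost when a control or a siRNA 2 array was dropped, with an adjusted p of 0.784 for all 3 without control replicate 1, and of 0.332 for Gli2 and Cyp2b23 and 0.248 for Tbx3 without control replicate 2. Without siRNA 2 replicate 1 it was 0.222, 0.222 and 0.224 for Gli2, Cyp2b23 and Tbx3, and without siRNA 2 replicate 2 it was 0.210, 0.211 and 0.233. Over all 6 omissions of an array the log2 change lay between -0.87 and -0.76 for Gli2, between -0.95 and -0.84 for Cyp2b23 and between -1.03 and -0.80 for Tbx3.

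The opposite pattern, low in control cells and high with both siRNAs, was closest in Ap3b2, an adaptor subunit of vesicle traffic (r -0.974), the mitotic kinase gene Nek7 (-0.971), the glutathione peroxidase gene Gpx2 (-0.956), the proteoglycan gene Sdc4 (-0.948) and the PDZ domain gene Pdzd2 (-0.946). Their log2 changes over both siRNAs were 0.51, 0.67, 0.59, 0.48 and 0.56, and none of the 5 passed (limma adjusted p = 0.125 to 0.143), while Ap3b2 did with the replicate block (0.0471). Over all genes, 6 of 19938 were called higher with the block. Of the other 9 coactivator genes, Kat2b alone was among the 453, with an SD over the arrays of 0.356 and an r of 0.493. For Ncoa2 r was -0.745 and for Ncoa1 0.706, over SDs of 0.085 and 0.0431.

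Further genes of the coactivator machinery were taken from 5 lists of related genes, 72 in all, of which 69 were measured. Over both siRNAs 0 of the 69 were called in either direction, beside 0.0702% of all genes called lower and 0% called higher; 5 had an unadjusted p under 0.05, beside 8.72% of all genes, and with the replicate block 1 fell (Prmt8), beside 0.311% of all genes called lower with the block. In the list of other receptor coactivators 7 of 15 lay below control (median log2 change 0.01). The 3 of smallest p were Med1, the Mediator subunit that contacts receptors (-0.18, limma adjusted p = 0.544), Ncoa7 (-0.18, 0.633) and the proteasome subunit Psmc5 (-0.12, 0.698), and none of them passed. The number below control was 10 without control replicate 1 or siRNA 2 replicate 2 and 5 without control replicate 2 or siRNA 2 replicate 1.

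In the list of other acetyltransferases and of SAGA and ATAC subunits, 22 of 28 lay below control (median -0.07), beside 47.7% of all genes. The 28 were all brighter than the median gene level of 7.81, and a share over genes of like brightness was not taken. On all 4 knockdown arrays 8 of the 28 lay below both controls and 2 above, beside 10.1% and 8.83% of all genes. The member of smallest p was Kat6b, a MYST family acetyltransferase of histone H3. Kat6b read 10.99 and 10.84 in control cells, 10.54 and 10.40 under siRNA 1 and 10.64 and 10.60 under siRNA 2. Each knockdown array was below both controls, with a log2 change of -0.37 over both siRNAs (standard error 0.0803, limma adjusted p = 0.235, and 0.07 with the replicate block). The change was -0.44 with siRNA 1 (0.186, and 0.0482 with the block) and -0.30 with siRNA 2 (0.726, and 0.222 with the block). The next were the ATAC subunit Zzz3 (-0.18, adjusted p = 0.578) and the SAGA subunit Supt20 (-0.15, 0.585), which did not pass. The number of the 28 below control was 20 after quantile normalization and 18 without control replicate 1.

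Among other protein arginine methyltransferases and their partners 7 of 11 lay below control (median -0.03), and 4 after quantile normalization. Prmt8, the closest paralog of Prmt1 and best known from neurons, where it is held at the plasma membrane, had the largest change over both siRNAs among the measured genes of these 5 lists. Prmt8 read 7.48 and 7.19 in control cells, 6.45 and 6.13 under siRNA 1 and 6.87 and 6.58 under siRNA 2. The groups did not overlap, and the siRNA 1 arrays were the lowest. Its log2 change was -0.83 over both siRNAs (standard error 0.138, limma adjusted p = 0.161, and 0.018 with the replicate block). The change was -1.05 with siRNA 1 (0.115, and 0.0183 with the block) and -0.61 with siRNA 2 (0.597, and 0.0523 with the block). All 6 values lie below the median gene level of 7.81, and no detection calls were used. The antiproliferative genes Btg2 and Btg1, whose products bind Prmt1, were at 0.19 (adjusted p = 0.581) and 0.15 (0.61) and did not pass.

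In the histone methyltransferase complex that holds Ncoa6, 8 of 9 genes lay below control (median -0.09), and 7 after quantile normalization or cyclic loess, beside 47.7% of all genes. These 9 were also all brighter than the median gene level, and genes of like brightness were not compared. The core subunits Wdr5 (log2 change -0.27, limma adjusted p = 0.375), Rbbp5 (-0.25, 0.401) and Dpy30 (-0.17, 0.667) had the smallest p and did not pass. The log2 change was -0.16 for Kdm6a, -0.09 for Ash2l, -0.08 for Kmt2c, -0.06 for Paxip1, -0.01 for Pagr1a and 0.07 for Kmt2d. Wdr5 read 11.46 and 11.35 in control cells, 11.19 and 11.08 under siRNA 1 and 11.11 and 11.19 under siRNA 2. Rbbp5 read 9.65 and 9.52 in control cells, 9.38 and 9.25 under siRNA 1 and 9.37 and 9.34 under siRNA 2. In both genes every knockdown array was below both controls. Such an order held for 3 of the 9 genes below control, Paxip1 being the third, and for 0 above, beside 10.1% and 8.83% of all genes.

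Of the 9 genes known to modify or degrade the p/CIP protein, 6 were measured, and 3 of these lay below control (median -0.03). The ubiquitin ligase adaptor Spop was at 0.12 (limma adjusted p = 0.692), the proteasome activator Psme3 at -0.10 (0.705) and the ubiquitin ligase Stub1 at -0.07 (0.781), and none passed.

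**Figure D4:**
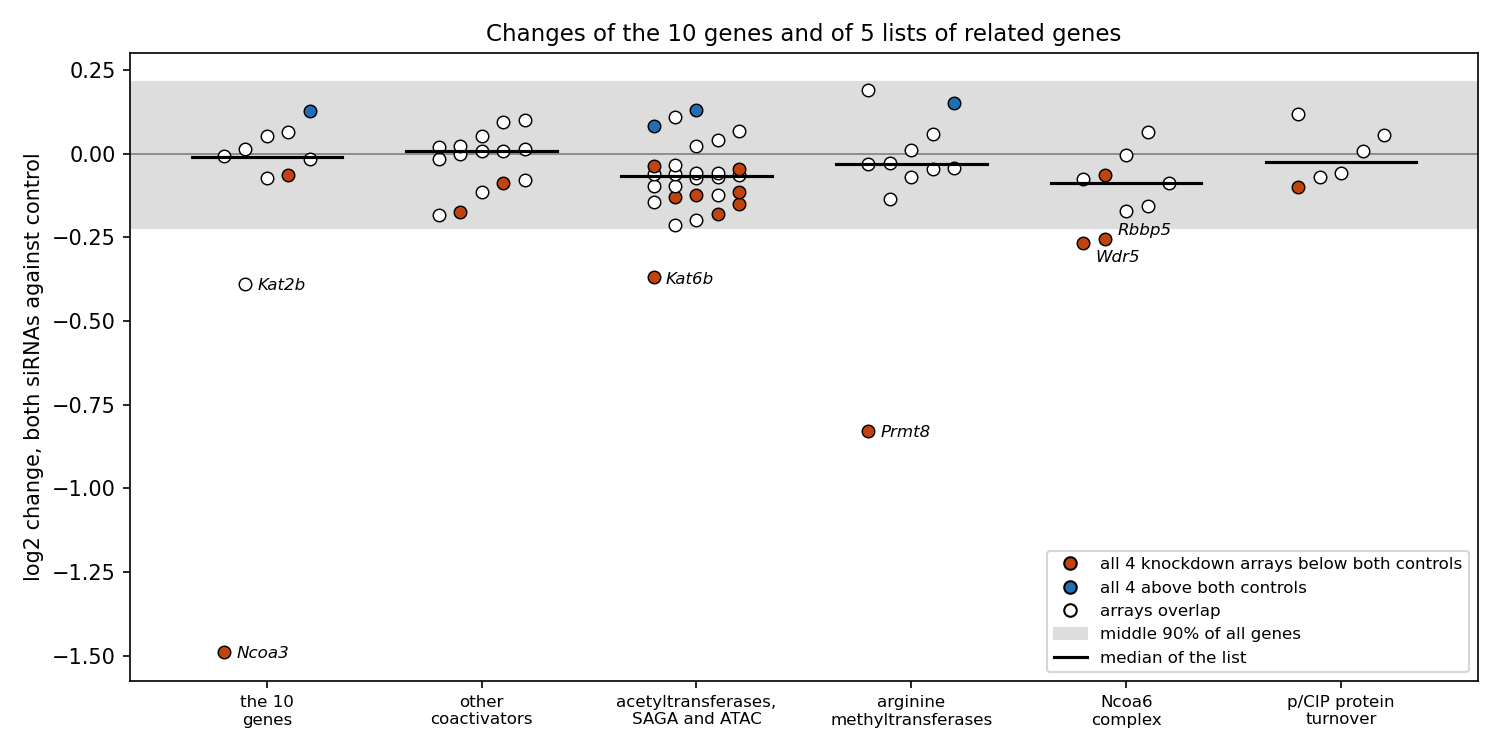
Log2 change over both siRNAs (y axis) of the 10 genes and of the 5 lists of related genes (x axis), with 1 point per measured gene, coloured where all 4 knockdown arrays lie on 1 side of both controls; black lines are list medians and the grey band holds the middle 90% of all genes. Ncoa3, at -1.49, and Prmt8, at -0.83, lie farthest from 0, and the list medians run from -0.09 to 0.01.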

How the data were processed

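The 6 arrays (3 groups of 2) carry 1 value per probe set in the deposited table, which the authors gave on a log2 scale, as inferred from the range. The submitters' processing notes name Partek; how signals were corrected, summarized and normalized is not given in the sources used here. Of 35556 probe sets, 21789 had 1 symbol in GEO's platform annotation, 1621 had several and were left unnamed, and 12146 were not listed; the probe set with the highest mean stood for each of the 19938 genes. No build is named in the table, so coordinates are not given. No depth applies to arrays, and their number limits the precision.

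All 3 groups were fitted together in limma 3.58.1 under R 4.3.3 (lmFit, contrasts.fit, eBayes; 3 residual and 3.84 prior degrees of freedom), two-sided, with no filter, and p-values were adjusted over all genes. Errors beside changes are standard errors. On simulated data for both siRNAs against control, 200 of 19938 genes were changed, and 98% of those changed by 1.5 on the log2 scale were recovered. The simulated arrays had independent spread and no shift shared by a replicate number. This share therefore checks the code, and does not measure the power in these data or for smaller changes. Deviations of arrays with the same replicate number correlated at 0.464, 0.407 and 0.461 across genes in the 3 pairs of groups, all over 0.1, so the replicate number was also used as a block; with 2 arrays per group this check is weak, and the labels do not say that the number marks a culture or day.

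Members, lists and tests were chosen with earlier results of these data known. All 10 members are named, with the called or 3 smallest-p genes of each list and the 5 genes of highest and of lowest r with Ncoa3, leaving out predicted and olfactory genes. Alternatives were the replicate block, low and high array codes as a block, 3 scalings, a filter on the lowest 25% of genes, other probe set rules, other moderation, fits of the compared groups alone, and each array left out.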

Additional observations from a re-analysis of the deposited data

How the results depend on the processing

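The changes of the 9 genes other than Ncoa3 were rerun 603 times over 4 contrasts and up to 17 alternatives, and 0 crossed the threshold. In some alternatives, such as array codes as a block or an unmoderated linear model, 0 of all genes were called for both siRNAs. The 603 reruns are therefore weak evidence that these genes did not change. In 333 of the 603 the value equalled the main one within 1e-05, as blocks, moderation, filters, probe set rules and arrays outside the contrast leave it in place. Of the 270 that moved, 41 took the other sign: 22 of the 162 with 1 array left out and 19 of the 108 under other settings. Those for genes of the lists and for genes like Ncoa3 were added after the data were seen. With 2 arrays per group, the arrays limit what can be called, and for lost or gained calls the cause was not tested unless stated.

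For both siRNAs, Ncoa3 kept its change of -1.49 with low and high array codes as a block, with all probe sets tested and in an unmoderated linear model, while its adjusted p became 0.157, 0.166 and 0.366, members called fell from 1 to 0 and genes called from 14 to 0; with all probe sets more tests are adjusted for. The replicate block called 68 genes and trend with robust moderation 71. For siRNA 1 the same 3 settings, and a fit of the compared groups alone, which has fewer arrays, left Ncoa3 at -1.49 with adjusted p of 0.184, 0.22, 0.314 and 0.155, and 0 members and 0 genes called; counts of genes were 241 with the replicate block, 39 after cyclic loess, 26 with medians aligned and 150 with trend and robust moderation, against 14. For siRNA 2, Ncoa3 passed, as the 1 member called, with the replicate block (-1.49, adjusted p = 0.048, 26 genes), quantile normalization (-1.46, 0.047, 2 genes), cyclic loess (-1.46, 0.0453, 2 genes), medians aligned (-1.48, 0.0193, 1 gene), trend and robust moderation (-1.49, 0.00269, 17 genes) and the compared groups alone (-1.49, 0.0193, 10 genes). Between the siRNAs, genes called were 15 with the replicate block, 1 with medians aligned and 23 with trend and robust moderation, against 0. The replicate block changed the call of no other member.

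Signs turned as follows. After quantile normalization and cyclic loess, for both siRNAs, Carm1 was at 0.024 and 0.025 and Kat2a at 0.044 and 0.035; for siRNA 1, Carm1 was at 0.029 and 0.032 and Prmt1 at 0.049 and 0.044; for siRNA 2, Carm1 was at 0.019 and 0.017 and Kat2a at 0.015 and 0.0041; between the siRNAs, Crebbp was at -0.010 and -0.013 and Carm1 at -0.0092 and -0.015. With medians aligned Kat2a was at -0.0045 for siRNA 1, Carm1 at 0.0027 for siRNA 2, and Ncoa1 at 0.014 and Ncoa3 at 0.023 between the siRNAs. Of the 11 genes of the arginine methyltransferase list, 4 lay below control after quantile normalization, against 7.

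With 1 array left out, members called ran from 0 to 1 for both siRNAs, siRNA 1 and siRNA 2, and genes called from 0 to 37, 0 to 437 and 0 to 10, and from 0 to 2 between the siRNAs. Ncoa3 ran from -1.54 to -1.43 for both siRNAs, -1.60 to -1.38 for siRNA 1, -1.59 to -1.39 for siRNA 2 and -0.11 to 0.11 between them. Kat2b ran from -0.56 to -0.22 for both siRNAs, -0.89 to -0.24 for siRNA 1, -0.38 to -0.049 for siRNA 2 and 0.022 to 0.67 between them. For both siRNAs Kat2a ran from -0.026 to 0.015 and Carm1 from -0.048 to 0.016. For siRNA 1 Carm1 ran from -0.056 to 0.0084, Kat2a from -0.031 to 0.051, Ep300 from -0.032 to 0.10 and Prmt1 from -0.036 to 0.011. For siRNA 2 Carm1 ran from -0.041 to 0.023, Ncoa6 from -0.13 to 0.023 and Kat2a from -0.061 to 0.018. Between the siRNAs Ncoa1 ran from -0.053 to 0.029, Ep300 from -0.030 to 0.10, Carm1 from -0.013 to 0.042, Kat2a from -0.072 to 0.0099, Ncoa6 from -0.038 to 0.12 and Crebbp from -0.015 to 0.052.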
